A study of Arabidopsis thaliana with 2 samples.

Results

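Of the 1996 nuclear PLT3 DAP peaks from Arabidopsis roots, 292 lay far from protein-coding genes and inside an annotated pseudogene or non-coding gene. A peak was placed in this set when its centre was more than 4000 bp from every protein-coding transcription start site (TSS) and fell within the interval of a gene that is not protein-coding. No enrichment value entered this choice. The library had 2036 peaks in all, with 28 in the mitochondrial and 12 in the chloroplast genome, which are not analysed here. DAP-seq exposes a sheared genomic library to a tagged protein made in vitro and sequences what the protein retains. Here the DNA came from whole roots of Col-0 wild type at 5 days post-germination, and 3xFLAG-PLT3, synthesised in wheat germ extract, was pulled down with anti-FLAG beads. A reaction with 3xFLAG-EGFP on the same genomic DNA was the negative control, and it enters only as the background of peak calling. For each protein, 200 ng of library was used and 20 amplification cycles were run. There was 1 library per protein, so nothing can be said about the spread between libraries, and the read depth is unknown. The DNA carried no chromatin and pooled all cell types of the root.

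PLETHORA (PLT) proteins belong to the AINTEGUMENTA-LIKE clade of AP2-domain transcription factors, which maintain root stem cells and act in a dose-dependent manner. They recognise an extended site in which both AP2 domains contact the DNA. Pseudogenes far from protein-coding genes in Arabidopsis are mostly remnants of transposable elements, which accumulate around the centromeres, where DNA is packed and heavily methylated in the living cell. Genomic DNA prepared for DAP-seq keeps its methylation but loses its packaging, so that such sequence can be bound in vitro.

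The summits of the strongest peaks included 2 kinds of sequence that could be described, although not every strong peak belonged to either. The first kind carried a site of the motif learnt from the remaining peaks, as in the following 5 members of the set, which are among the 10 with the largest −log10 q. The 16 bases of the best site are in capitals, printed 5′ to 3′ on the strand of the site with 12 bases on either side (TAIR10, in this order: chr3:12695219-12695258, minus strand; chr2:4811838-4811877, plus; chr5:12250136-12250175, minus; chr5:11436009-11436048, plus; and chr3:14246739-14246778, minus).
AT3G31320: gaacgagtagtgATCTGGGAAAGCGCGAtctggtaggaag
AT2G11930: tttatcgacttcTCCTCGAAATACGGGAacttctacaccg
AT5G32600: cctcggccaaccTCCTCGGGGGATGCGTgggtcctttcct
AT5G31752: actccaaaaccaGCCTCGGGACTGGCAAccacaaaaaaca
AT3G42057: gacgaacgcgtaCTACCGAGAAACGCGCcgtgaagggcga

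The second kind had no such site and consisted of a short unit in tandem, as in the 3 members below, which rank first, second and seventh by −log10 q. Shown are the 150 bp around the summit on the plus strand (TAIR10, chr3:10414877-10415026, chr5:14153665-14153814 and chr2:5825334-5825483), and capitals mark each copy of the 9-mer TTTTGGCGG or of its complement CCGCCAAAA.
AT3G28010: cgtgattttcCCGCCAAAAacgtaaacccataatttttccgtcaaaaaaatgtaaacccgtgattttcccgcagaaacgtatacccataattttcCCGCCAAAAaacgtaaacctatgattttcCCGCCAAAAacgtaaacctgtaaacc
AT5G36010: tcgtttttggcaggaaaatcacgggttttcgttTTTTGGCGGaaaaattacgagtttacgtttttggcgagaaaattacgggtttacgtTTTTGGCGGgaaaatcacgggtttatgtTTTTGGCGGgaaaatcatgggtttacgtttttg
AT2G13890: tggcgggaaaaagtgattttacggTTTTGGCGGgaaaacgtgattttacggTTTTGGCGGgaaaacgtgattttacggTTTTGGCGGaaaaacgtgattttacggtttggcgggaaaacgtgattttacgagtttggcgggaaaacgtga

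The median enrichment of peaks in pseudogenes and non-coding genes was close to that of all nuclear peaks, while their highest value was below the highest values elsewhere. Fold enrichment, a linear ratio over the local background at the summit, ranged from 2.63 to 14.96 with a median of 4.77 and quartiles of 4.10 and 6.14. Over all nuclear peaks the median was 4.75 and the maximum 24.5, which was reached in a distal peak outside such genes. By construction 50% of nuclear peaks lay above that median, and 148 of the 292 peaks in pseudogenes and non-coding genes did (50.7%). The other 261 distal peaks, which lie outside such genes, had a median of 4.96, and 142 of them exceeded the nuclear median. The difference of −3.72 percentage points had a 95% Newcombe interval from −12.0 to 4.59 (Fisher's exact test, two-sided, adjusted p = 0.395). This test and the 5 others below were adjusted together by the Benjamini-Hochberg method over 6 tests. Their units are peaks of 1 library, some of which share sequence, so that these p-values are too small as a measure of the difference between the groups. A q-value of 1e-05 or less was reached by 144 peaks in pseudogenes and non-coding genes (49.3%), against 47.3% of all nuclear peaks and 139 of the other distal peaks. This difference of −3.94 points (95% interval −12.2 to 4.38) did not pass the test either (Fisher's exact test, adjusted p = 0.395).

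**Figure D1:**
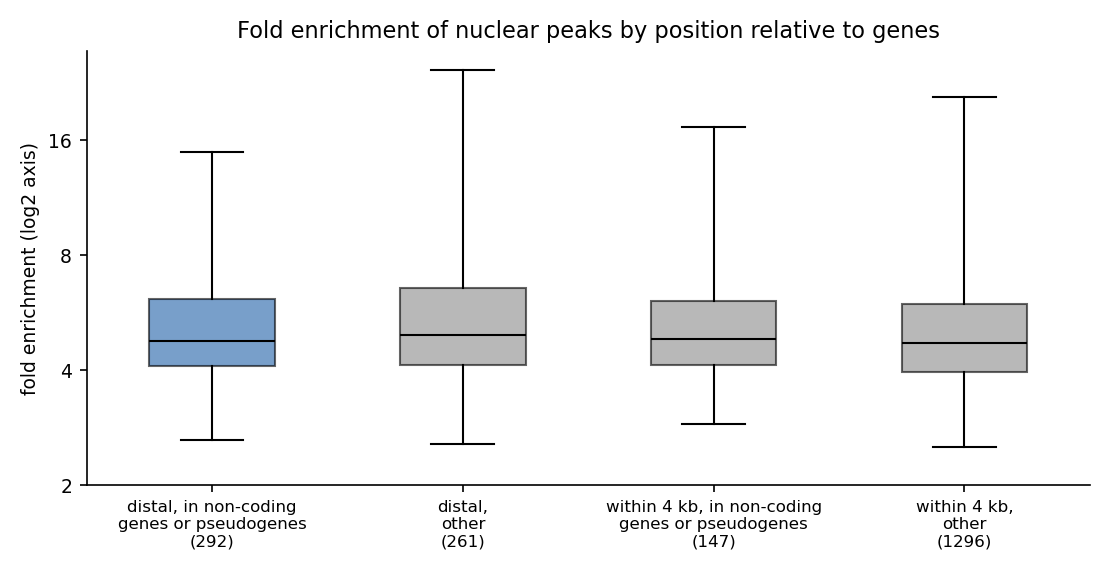
Fold enrichment (linear ratio, drawn on a log2 axis) of nuclear peaks in 4 groups, by distance from a protein-coding TSS and by whether the centre lies in a non-coding gene or pseudogene, with the number of peaks in parentheses. Boxes show the quartiles and the median, and whiskers reach the lowest and highest peak. The boxes overlap almost entirely, with a median of 4.77 for the 292 distal peaks in pseudogenes and non-coding genes and 4.96 for the other distal peaks.

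The peaks with the largest −log10 q came from different chromosomes and host genes. The peak in AT3G28010 (chr3:10414328-10415217) had the largest fold enrichment of the set, 14.96, with a −log10 q of 37.6. AT5G36010 (chr5:14153395-14154110) followed with 11.8 and a −log10 q of 34.0. Both hosts are pseudogenes with no translated similarity to an Arabidopsis protein at the threshold used. AT5G32600 (chr5:12249838-12250543) had a fold enrichment of 11.3 and AT3G31320 (chr3:12694983-12695522) one of 10.5, both with a −log10 q above 27. The transcribed pseudogene AT2G11930 (chr2:4811385-4812207) reached 11.5. Its closest protein is that of AT2G15110, of unknown function, with 60.2% identity. The rest of the 10 were AT5G31752 at 10.6, AT2G13890 at 9.36, AT3G42057 at 10.9, AT3G30711 at 10.4 and the transcribed pseudogene AT5G29030 at 9.30. Of these 10 peaks, 6 had a site of the motif at the summit. The 4 without one were the 3 tandem arrays shown above and AT5G29030.

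Nearly all hosts were pseudogenes. The 292 peaks fell in 229 genes, of which 212 are annotated as pseudogenes, 16 as transcribed pseudogenes and 1 as a long non-coding RNA. The annotation has no separate class for transposable element genes, and only 7 hosts carried a description. SADHU1-2 (AT1G30835) and SADHU2-1 (AT1G35112) belong to the Sadhu family of non-coding retrotransposons and held 1 peak each, with fold enrichments of 3.599 and 3.32. AT5G32690, described as a pseudogene of AT2G29880, is the longest host at 58519 bp and held a peak of 6.13. The hosts had a median length of 3705 bp. Peak centres were spread along them, with 60, 54, 55, 66 and 57 peaks in 5 successive stretches of equal length from the 5′ to the 3′ end of the host. The best site lay on the strand of the host gene in 90 of 201 peaks with a site (44.8%, 95% Wilson interval 38.1 to 51.7%), an interval that includes equal use of both strands.

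Because descriptions were so rare, each host gene was translated and grouped by the product of its best match among Arabidopsis proteins, which 156 hosts had. Remnants of retrotransposons were the largest named class. A Gag-Pol polyprotein, reverse transcriptase or similar retrotransposon product was the best match of the hosts of 82 peaks. Such proteins copy the element through RNA and package it. Their median fold enrichment was 4.79, and the highest value, 10.9, belonged to AT3G42057, which has 85.0% identity to the Gag-Pol product of AT5G39775. A further 13 peaks lay in hosts similar to ribonuclease H-like proteins and 11 in hosts similar to zinc knuckle or nucleic acid-binding proteins, with the highest values in AT1G36360 (9.17) and AT3G42383 (9.68). These domains also occur in retrotransposon proteins, but the classes were kept apart since their products do not name an element.

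DNA transposons were represented by fewer peaks. Hosts resembling Mutator-type transposases, the enzymes that cut such elements out of DNA and insert them again, held 15 peaks with a median fold enrichment of 5.15, led by AT4G06503 at 8.42. Hosts resembling En/Spm-type transposon products held 4 peaks, none above 4.49. Proteins named myosin heavy chain-like were matched by the hosts of 28 peaks with a median of 5.07. The highest of these was AT5G31752, whose identity to AT2G15420 was only 28.3%, so the name says little of its origin. Uncharacterised products were matched for another 28 peaks, with AT2G11930 the highest. The hosts of 7 peaks had a best match named cysteine-rich receptor-like kinase, with a median of 3.63 and 1 high value of 9.64 in AT2G16670. The identity of AT2G16670 to its match, AT4G23160, was 48.1%. This class too rests on the product name alone, and whether its hosts derive from kinase genes or from transposable elements was not tested. Another 17 peaks lay in hosts similar to various other named products, led by AT3G30405 at 7.67, a host with 83.6% identity to urophorphyrin methylase 1. The remaining 87 peaks were in hosts without a match.

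**Figure D2:**
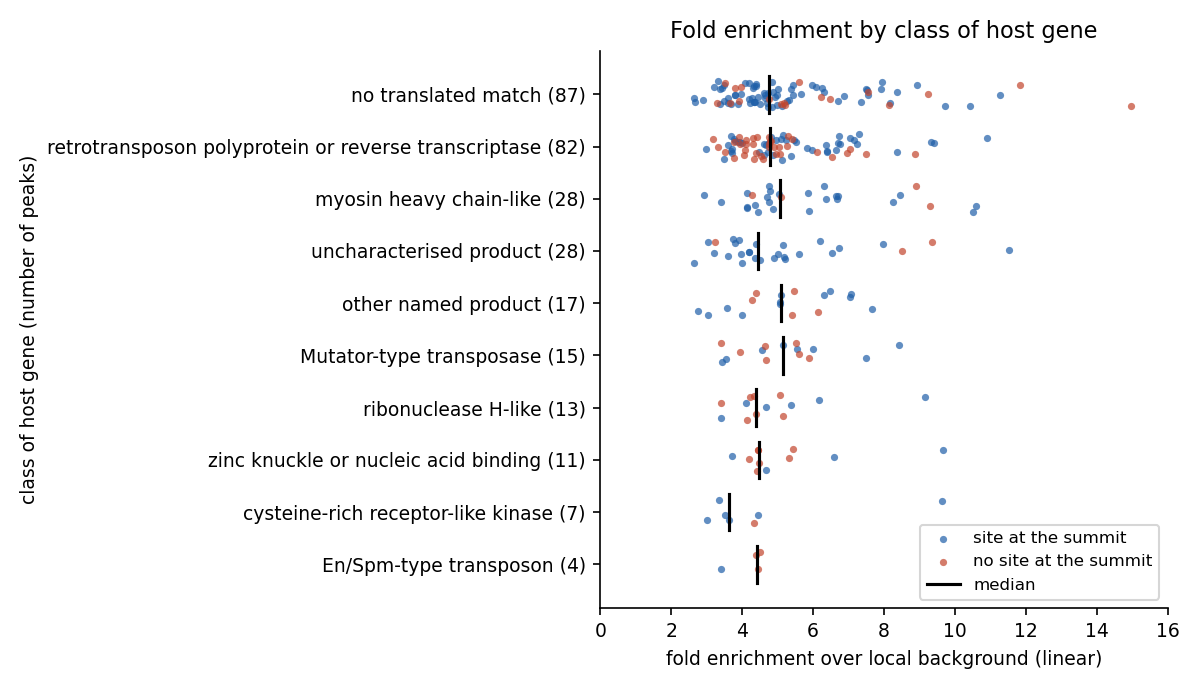
Fold enrichment (linear ratio) of each of the 292 peaks by class of the host gene, with the number of peaks in parentheses. Each point is a peak, in blue where the 100 bp at the summit hold a site and in red where they do not, and black bars are medians. Class medians lie between 3.63 and 5.15, while single peaks range from 2.63 to 14.96, and the 2 highest points, in hosts without a match, have no site.

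Sites of the kind that marks PLT3 peaks in general were also present at the summits in pseudogenes and non-coding genes. A weight matrix with 16 positions was trained on 1475 nuclear peaks outside the set that share no 20-mer with it, with a threshold passed by 5% of the flanking windows of those peaks. Position 4 was T in 94.2% and position 6 was G in 97.9% of the learnt matrix, counted from the 5′ end, and G made up 79.95% of position 13. A site above the threshold lay in the 100 bp at the summit of 201 of the 292 peaks (68.8%, 95% Wilson interval 63.3 to 73.9%). Over all nuclear peaks, which include those used for training, this share was 69%, so the share in pseudogenes and non-coding genes is close to the background of the library. In windows of the same size 500 bp from the summit, to the right on the plus strand, 34 of the 292 had a site (11.6%), compared with 6.16% of all nuclear peaks. There were 173 peaks with a site only at the summit and 6 with a site only in the flank (exact binomial test, two-sided, p = 1.13e-43). The units of this test and the next are peaks of 1 library, so these p-values do not measure the spread between libraries. Some of the 292 peaks also share sequence, which makes the first p-value too small. Taking 1 peak per group with shared sequence left 103 summits and 12 flanks with a site among 148 peaks (exact binomial test, p = 1.92e-24). The share with a site depends on the matrix learnt from this library and on its threshold. With the published AINTEGUMENTA consensus and up to 2 mismatches, 59 of the 292 summits and 15 of the flanks had a site.

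The sites lay close to the summit. The best site was centred a median of 4.50 bp from the summit, and 166 of the 201 sites (82.6%) were within 20 bp. Many peaks held several sites. Over the whole width of the peak, 42 peaks had none, 101 had 1 and 149 had at least 2 sites. Such counts are not given for the other nuclear peaks, so they are not read as a trait of the set. Median fold enrichment was 4.50 without a site, 4.64 with 1 site and 5.07 with 2 or more, although wider peaks have more room for sites. In 4 groups of 73 peaks ordered from the lowest to the highest −log10 q, a site at the summit was present in 67.1%, 61.6%, 69.9% and 76.7%, and the Wilson intervals of all 4 overlap.

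**Figure D3:**
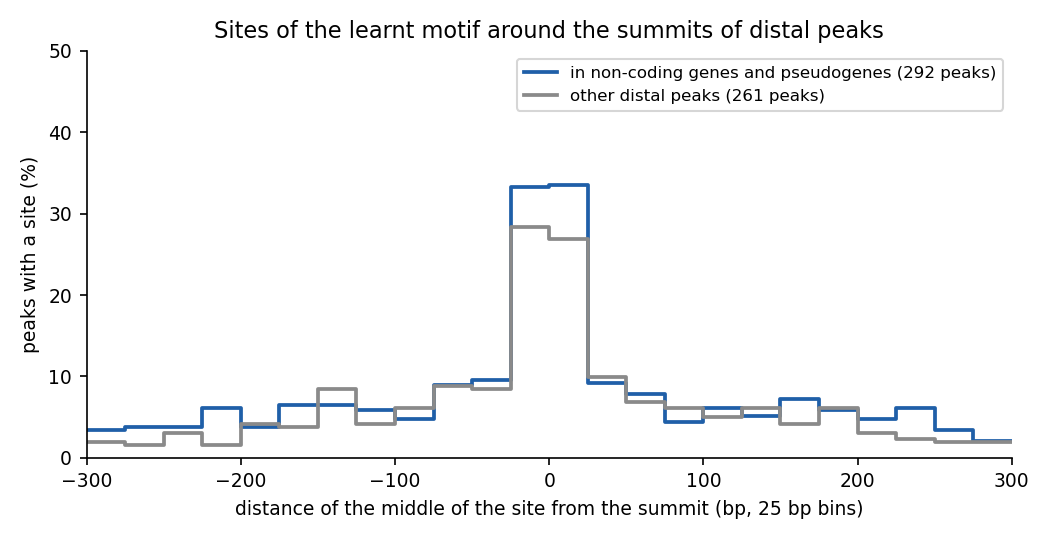
Share of peaks with a site of the learnt motif in bins of 25 bp by distance from the summit, for the 292 distal peaks in pseudogenes and non-coding genes (blue) and the 261 other distal peaks (grey). Both curves rise in the 2 bins next to the summit, to 33.2% and 33.6% in blue and 28.3% and 26.8% in grey.

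Compared with the other distal peaks, sites were more frequent, but the difference was close to 0 when 1 peak was kept per group with shared sequence. Such a group can join peaks through others, so a peak left out need not be a copy of the peak kept. Of the other distal peaks, 153 (58.6%) had a site, which is 10.2 points fewer (95% interval 2.20 to 18.1, Fisher's exact test, adjusted p = 0.0263). The peaks used to train the matrix include other distal peaks but none of the set. With a matrix learnt on peaks in neither group, 195 of 292 and 140 of 261 had a site, a difference of 13.1 points (Fisher's exact test, adjusted p = 0.00344). With 1 peak per group with shared sequence, the shares were 103 of 148 and 112 of 163, and the difference fell to 0.883 points (Fisher's exact test, adjusted p = 0.902). Without the tandem arrays described below, an alternative chosen after seeing the data, it was 6.30 points (Fisher's exact test, adjusted p = 0.268). Against all other nuclear peaks it was −0.178 points.

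Host classes varied in how often a site was present. Sites were found at 25 of 28 summits in hosts matching uncharacterised products (89.3%, 95% Wilson interval 72.8 to 96.3%) and at 24 of 28 in the myosin heavy chain-like class. They were found at 46 of 82 summits in the retrotransposon class (56.1%, 45.3 to 66.3%) and at 4 of 11 in the zinc knuckle class. These are descriptions, since some peaks share sequence and are not independent.

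The base before the near-invariant G matters for DNA methylation, because C followed by G is the main context of methylated cytosine in transposable elements. Positions 5 and 6 of the site were CG in 121 of 201 peaks with a site (60.2%), against 58.8% over all nuclear peaks with a site. TG was present in 49, GG in 20 and AG in 11. In the other distal peaks, 85 of 153 sites had CG (55.6%), a difference of 4.64 points with an interval from −5.65 to 14.9 (Fisher's exact test, adjusted p = 0.395). A second CG, at positions 12 and 13, occurred in 111 sites (55.2%), against 46.5% over all nuclear peaks with a site and 83 of 153 sites in the other distal peaks (54.2%), and these shares were not tested. Methylation itself is not measured in these data.

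The tandem arrays form a family of their own, with 6 members in the set. They are the peaks that share sequence, directly or through other peaks, with that in AT3G28010. Besides AT3G28010, AT5G36010 and AT2G13890 these were the peaks in AT3G29788 with a fold enrichment of 8.50, AT4G06616 with 8.13 and AT4G06494 with 7.53. All 6 thus had a fold enrichment above the upper quartile of the set, and none had a site at the summit. The 9-mer TTTTGGCGG, which occurs in the 150 bp at the summit of all 6, was present 5 to 17 times in each peak on either strand, and neighbouring copies were most often 28 bp apart. Their GC content was between 27.34% and 37.98%.

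This family was rare among distal peaks in pseudogenes and non-coding genes compared with the rest of the library. It made up 6 of these 292 peaks (2.05%, 95% Wilson interval 0.945 to 4.41%) and 25 of the 261 other distal peaks (9.58%, 6.57 to 13.8%). Of all nuclear peaks, 126 belonged to it, with a median fold enrichment of 8.30, and 4 of these had a site at the summit. When nuclear peaks were ranked by −log10 q, 23 of the first 30 were in this family, and 2 of these 30 were in the set. At least 2 copies of the 9-mer on either strand were found in 125 nuclear peaks (6.26%), 121 of which were in the family, and 5 of the 125 had a site at the summit. The family and its 9-mer were chosen after seeing the values, and these counts are given without a test. The control library was not analysed on its own, and whether PLT3 contacts the repeat was not tested.

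Most peaks in pseudogenes and non-coding genes lay in sequence that occurs elsewhere in the nuclear genome. At 80% identity over 80% of the peak, 221 of 292 (75.7%) had at least 1 other copy, against 35% of all nuclear peaks and 143 of the 261 other distal peaks (54.8%). The difference of 20.9 points from the other distal peaks (95% interval 12.99 to 28.5) passed the test (Fisher's exact test, adjusted p = 8.18e-07). The choice of the set puts its peaks inside pseudogenes and non-coding genes and the other distal peaks outside them. Copies were not counted for such genes without a peak, so the difference is not read as a trait of binding. At 90% identity 114 peaks (39.0%) had a copy, against 15.4% of all nuclear peaks. This was 7.24 points more than the other distal peaks, which did not pass (Fisher's exact test, adjusted p = 0.182). A 31-mer of the summit window recurred elsewhere in 131 peaks (44.9%), against 22.7% of all nuclear peaks, with a difference of 5.02 points from the other distal peaks (Fisher's exact test, adjusted p = 0.395). Reads with a mapping quality below 30 had been removed, and the effect of this on repeated sequence was not tested. No peak of the set matched the organellar genomes. Fold enrichment differed little, with a median of 4.89 in the 71 peaks without a copy and 4.75 in those with copies, and a site was present in 53 of the former and 148 of the latter.

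**Figure D4:**
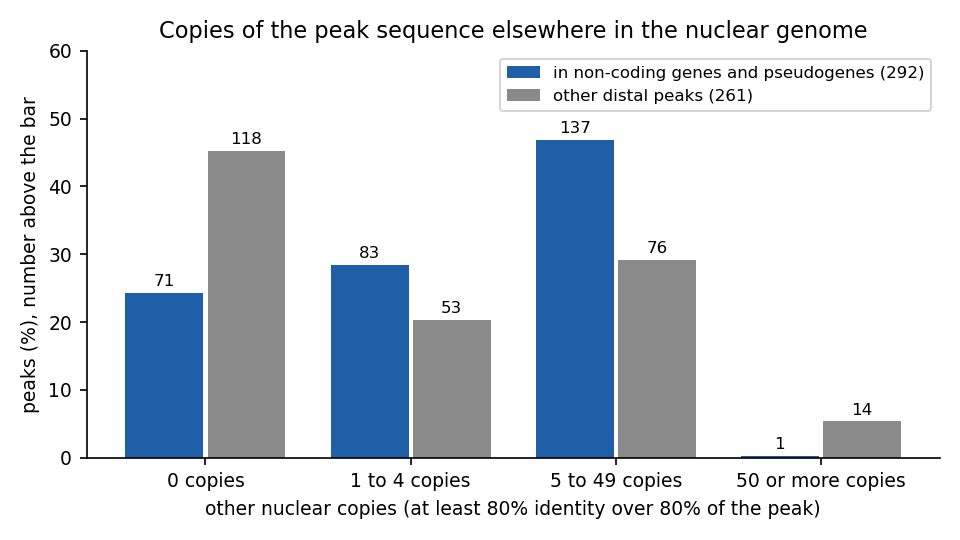
Share of peaks (%) by the number of other copies of their sequence in the nuclear genome, for the 292 distal peaks in pseudogenes and non-coding genes (blue) and the 261 other distal peaks (grey), with the number of peaks above each bar. Of the blue peaks, 137 have 5 to 49 copies and 71 have none, whereas 118 of the grey peaks have none and 14 have 50 or more.

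Peaks of the set could be linked into groups by shared sequence. Peaks were linked when an alignment over at least 50% of either of them overlapped the other by any length. Peaks of a group can thus be joined through others without being copies of one another. This gave 148 groups, in which 117 peaks stood alone and 175 were grouped with another peak of the set. The largest group held 39 peaks in 25 hosts on all 5 nuclear chromosomes, with fold enrichments from 2.90 to 10.4 and a site in 25 of them. AT3G30711 was its strongest peak, followed by AT2G13060 at 9.32, AT4G06546 at 8.86 and AT4G06640 at 8.36, and 27 of the 39 lay in hosts of the retrotransposon class. The next group held 33 peaks with a site in 27, led by AT1G40113 at 9.40, and the third held 10 peaks with a site in 9.

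Where the same site recurred, the fold enrichment still varied. The commonest site was shared by 6 peaks on chromosomes 2, 3 and 4, with fold enrichments of 4 in AT2G10780, 4.46 in AT2G01037, 6.72 in AT3G29615, 7.05 in AT2G12930, 7.15 in AT2G01026 and 7.31 in AT4G03840. The second was shared by 4 peaks on chromosomes 1, 3, 4 and 5, which stayed between 5.88 and 6.67. The sequences show how far identity extends beyond the site. The strongest and the weakest peak of the first family are given, followed by 2 peaks of the second, with the site in capitals (TAIR10, chr4:1798083-1798122, chr2:4238758-4238797, chr1:12665830-12665869 and chr5:12190739-12190778).
AT4G03840: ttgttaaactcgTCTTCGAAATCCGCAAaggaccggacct
AT2G10780: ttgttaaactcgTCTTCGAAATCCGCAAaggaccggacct
AT1G34590: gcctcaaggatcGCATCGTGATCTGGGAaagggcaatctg
AT5G32520: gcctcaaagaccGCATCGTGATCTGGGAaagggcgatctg
The first pair is identical over the 40 bases shown, although the fold enrichments were 7.31 and 4. In both of these summit windows 100% of the 31-mers recur elsewhere in the nuclear genome, and reads with a low mapping quality had been removed. The part of this in the difference was not tested, and with 1 library the error of a fold enrichment is unknown. In all, 23 of the 201 peaks with a site had a best site that was also the best site of another peak of the set.

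Copies without a peak were examined at the position aligned with the site. Of the 148 peaks with both a site and a copy, 140 had an aligned position of the site that was assigned to them, since each of the 1084 positions found elsewhere in the nuclear genome was counted once under its most similar peak and the alignment had to reach both ends of the site. Of these, 246 lay in a peak, in 181 cases another peak of the set, and 838 did not. Among alignments without a gap in the site, the copy still scored above the threshold at 157 of 241 positions in a peak (65.1%, 95% Wilson interval 58.9 to 70.9%) and at 341 of 769 positions without one (44.3%, 40.9 to 47.9%). Many positions are copies of the same sequence and are not independent, so these intervals are too narrow. The difference was not tested. The median score was 9.58 bits in peaks and 8.19 bits outside them, with a threshold of 8.68 bits. The 31-mers around the position were less unique in copies without a peak, where a median of 31.4% of them occurred more than once in the nuclear genome, against 14.3% in copies with a peak. The part of this in the difference was not tested, and the lack of a peak does not show that a copy is unbound, since the depth is unknown.

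**Figure D5:**
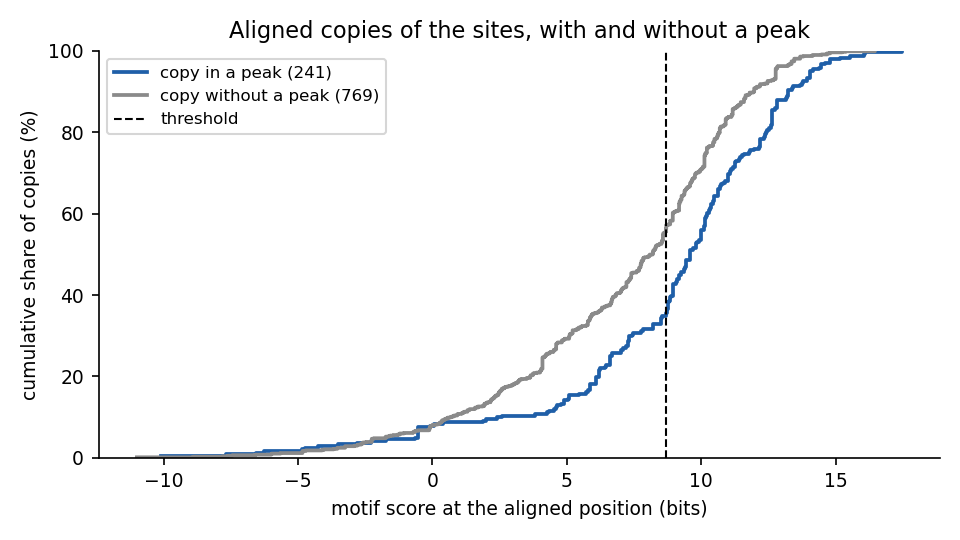
Cumulative share (%) of the aligned copies of sites by their motif score in bits, for 241 copies in a peak (blue) and 769 copies without a peak (grey), with the threshold of 8.68 bits as a dashed line. The blue curve lies to the right of the grey one over most of the range, with medians of 9.58 and 8.19 bits.

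The family of AT1G40113 gives single cases of such changes. Its strongest peak (chr1:15165725-15166385) had a fold enrichment of 9.40. Of the positions assigned to this peak, 1 of 3 in a peak and 2 of 7 without one scored above the threshold. An aligned position in a peak at chr3:15580162-15580177 scored only 5.09 bits. The site of the strongest peak is given first below, followed by the aligned position on chromosome 5 in a peak of 4.86 in AT5G31662 (chr5:11432746-11432761), and by that on chromosome 3 without a peak (chr3:12841677-12841692). Capitals mark the site, printed on the strand that aligns with it.
AT1G40113: TCGTCGTGATCCGTGC
Copy in a peak: TCGTTGTGATCCGTGC
Copy without a peak: TCGTCTTGATCCGCGC
Their scores were 14.1, 12.6 and 7.22 bits. The copy in a peak differs from the site at 1 position and the copy without a peak at 2, and of the 31-mers around the latter 68.6% occur more than once. The same 16 bases as in the latter also lay in a peak of 5.01 in AT4G04157 (chr4:2006450-2006465), where it lies outside the 100 bp at the summit and is not the best site of that peak, and an unchanged site was met without a peak at chr1:15285577-15285592, where 100% of the 31-mers occur more than once.

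Some hosts held several peaks. A single peak was found in 176 hosts, 2 in 43 hosts and 3 in 10 hosts. Of the 43 hosts with 2 peaks, 23 had a site at both summits, 15 at 1 and 5 at neither. In the 10 hosts with 3 peaks, 23 of the 30 summits had a site. These were AT1G40113, AT2G09920, AT2G15410, AT3G32899, AT3G33115, AT5G31662 and AT5G33533 of the retrotransposon class, AT5G29020 of the myosin heavy chain-like class, and AT4G04157 and AT5G32598 without a match. In AT5G29020, 4552 bp long, all 3 summits had a site, with fold enrichments of 4.75, 6.70 and 4.78 within a span of 1873 bp. In AT4G04157 all 3 had a site as well, and the values were 5.11, 5.01 and 7.54. Over the whole set, 144 peaks (49.3%) had another peak of the set centred within 5000 bp. Neither neighbours nor peaks per host are given for the other nuclear peaks. These counts thus have no background and are not read as a trait of the set.

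Copies of the same sequence in the same orientation can mark the ends of a long terminal repeat element. Between 1000 and 15000 bp away, 13 of the 292 peaks had a copy in the same direction and 2 had one in the opposite direction. Such copies were not counted for the other nuclear peaks, so these counts have no background and are not read as a trait of the set. In 3 pairs both copies were peaks of the set. They were AT2G01026 with 7.15 and AT2G01028 with 5.59, and 2 pairs that joined AT5G33533 (5.53 and 4.77) with AT5G33624 (6.69 and 4.82). The centres were 4428 bp apart in the first pair, and 11943 and 11754 bp apart in the other 2. In each pair the 2 peaks lay in different hosts and had different best sites. Whether any of these pairs marks the ends of 1 element was not tested.

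The peaks were concentrated in a few stretches of each chromosome. The choice of the set confines them to non-coding genes and pseudogenes far from protein-coding TSSs. How such genes, or the other distal peaks, are spread along the chromosomes was not counted, so the concentration is not read as a trait of binding. They numbered 32, 66, 71, 57 and 66 on chromosomes 1 to 5, which is between 6.85% of the nuclear peaks of chromosome 1 and 20.2% of those of chromosome 2. From the 10th to the 90th percentile their centres spanned 3.07, 4.76, 3.22, 2.53 and 2.02 Mb on chromosomes 1 to 5. On chromosome 5, 29 of 66 centres lay between 11 and 12 Mb and 25 between 12 and 13 Mb. On chromosome 4, 28 of 57 lay between 3 and 4 Mb, and another 19, of which 16 had a site, lay between 1671185 and 2247924 with a median fold enrichment of 5.82. On chromosome 2, 6 peaks lay within the first 0.1 Mb. The median number of protein-coding TSSs within 100 kb was 7 for the set and 13 for the other distal peaks. It was 53.5 for peaks near a protein-coding TSS and outside non-coding genes, which follows in part from the distance used to choose them. The median distance to the nearest protein-coding TSS was 13060 bp.

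The sequence under these peaks was rich in G and C. Median GC content was 47.4%, against 42.5% for the other distal peaks. Of the 292, 218 (74.7%) lay above the nuclear median, as did 49.9% of all nuclear peaks and 113 of the other distal peaks (43.3%). The difference was 31.4 points (95% interval 23.3 to 38.9, Fisher's exact test, adjusted p = 3.01e-13). With 1 peak per group with shared sequence it was 24.1 points (Fisher's exact test, adjusted p = 7.61e-05). The GC content of pseudogenes and non-coding genes without a peak was not examined, so this difference too is not read as a trait of binding. The higher GC content stands beside the higher share of flanking windows with a site given above, and its part in that was not tested. The peaks were also wide, with a median of 373.5 bp compared with 345 bp for the other distal peaks and 321 bp over all nuclear peaks.

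Near the distance limit, the values were of the usual size. Just inside it were the peaks in AT3G31945, 4001 bp from a TSS with a fold enrichment of 6.30, and AT4G07516, at 4048 bp with 5.37. Just outside were those in AT3G46382, at 3939 bp with 4.26, and AT2G06070, at 3893 bp with 4.14.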

How the data were processed

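PLT3 DAP-seq of Col-0 roots was analysed from the deposited peak list, called by the authors on 1 library against the EGFP control. Per the labels and the methods of the study, reads were trimmed with fastp 0.23.2, mapped to TAIR10 with BWA 0.7.17, filtered for duplicates and a mapping quality of at least 30 with SAMtools 1.15 and Sambamba, and peaks were called with MACS3 3.0.0a7 at a q-value of 0.05. The authors' list gives fold enrichment (a linear ratio), −log10 p and −log10 q. The deposited score is an integer that MACS3 derives from −log10 q, and it was not used. The list holds no read counts, so depth is unknown, and intervals cover counting error only. The control was not analysed on its own here. Removal of reads of low mapping quality can lower the signal in repeated sequence, which was not tested.

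Genes and sequence came from RefSeq TAIR10.1. No nuclear peak ran past a chromosome end there. Positions are 1-based. The best site was scored on both strands in 100 bp windows. Copies were aligned with blastn and hosts with blastx (BLAST 2.17.0, e-value 1e-10). Host classes were to come from gene descriptions, but only 7 hosts had one, so a keyword table on the best translated match was made after the product names were seen. Named genes are the hosts of the 10 peaks with the largest −log10 q, of the strongest peak in each class of 5 or more peaks, of 2 or more peaks (those with 3 are named), of the largest group that shares sequence, and of the 2 peaks on either side of the distance limit. Others that carry a printed sequence, a description or a shared site, or that belong to the tandem arrays, were named after their values were seen. The set and these lists were chosen with earlier results of these data known. Tests were Fisher's exact test and the exact binomial test in scipy 1.17.1, checked on simulated data. The alternatives were other distance limits, q-values, windows, thresholds, groups and copy definitions.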

Additional observations from a re-analysis of the deposited data

How the results depend on the processing

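No paired analysis was possible because each protein has a single library, and leaving out a replicate was not possible for the same reason. Of 56 alternatives, 44 were counted as unchanged. Some of these concern only the number of peaks in the set, which stayed between 267 and 333 in them. The rest left direction and side of the threshold as they were. The excess of sites at the summit over the flank kept both in all 8 of its alternatives, with ratios from 3.93 to 13.9. In 1 of them the flank lay on the other side of the summit, where 34 peaks again had a site, although only 2 peaks had a site in both flanks. Leaving out the tandem arrays could not change this excess, since their peaks had a site in neither window. With q-values of at most 1e-05 the set fell to 144 peaks, since fewer peaks pass. The difference in the share of sites from the other distal peaks was no longer past the threshold with summits in place of centres (8.89 points), with q-values of at most 1e-05 (9.58), with 1 peak per group with shared sequence (0.883), with the stricter 1% threshold (6.79) and in 200 bp windows (4.54), nor, in an alternative added after the data were seen, without the tandem arrays (6.30). The difference in repeated sequence was not past it at 90% identity (7.24) or by 31-mers (5.02). Against all other nuclear peaks, the differences in sites (−0.178), in fold enrichment above the median (0.802) and in q-values of at most 1e-05 (2.37) turned sign, as did that in CG with the 1% threshold (−0.894), none of them past the test. Apart from the settings whose construction leaves fewer peaks, the cause was not tested. Depth limits all statements on copies without a peak.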
